A study of Homo sapiens with 4 samples.

Results

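To describe how one transcription factor family differed between enzalutamide-resistant and parental prostate cancer cells, 10 Kruppel-like factor (KLF) genes were examined: KLF2, KLF3, KLF4, KLF5, KLF6, KLF7, KLF10, KLF11, KLF12 and KLF13. They were picked out of the 18 KLF genes, and of 20332 genes in the deposited table, and had been selected on a known difference between the same libraries, LN-35 against LNCaP. Their values are therefore given as a description without a test. LN-35 is the subline obtained from LNCaP, a line from a lymph node metastasis of human prostate carcinoma, by stepwise escalation of the antiandrogen enzalutamide, and its libraries carry the label of enzalutamide treatment and of resistance (2 libraries). Parental LNCaP cells carry the label WT and no treatment (2 libraries). Both lines are recorded in RPMI-1640 with serum, whereas the study's methods place the selection in charcoal-stripped serum, so drug, serum history and clonal selection cannot be told apart. Separate cultures for the libraries of a line are not stated in the labels, and the study's general statement on independent replicates names more replicates than the libraries used here, so SDs and p-values describe the scatter of these libraries alone, and that scatter may be technical.

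KLF proteins are transcription factors with a run of C2H2 zinc fingers at the carboxyl end that reads CACCC boxes and related GC-rich sites, which they share with the SP factors. The family falls into classes by the partner of the amino-terminal part. KLF2, KLF4, KLF5, KLF6 and KLF7, with KLF1, work with histone acetyltransferases such as p300 and mostly activate genes, KLF3, KLF8 and KLF12 recruit the corepressor CtBP, and KLF9, KLF10, KLF11, KLF13, KLF14 and KLF16 recruit the corepressor SIN3A. In epithelia, KLF4 is known for differentiation and growth arrest and KLF5 for the proliferating basal compartment.

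Because such boxes are what KLF proteins read, the windows upstream of 4 members with large differences are shown. Capitals mark CACCC and GGGCGG on either strand, which overlap in places. None of these windows overlaps an annotated exon. Sequences are the 250 bases before a RefSeq start on GRCh38.p14, 5′ to 3′ on the gene's strand, and for KLF5 and KLF12 they belong to start 1 of 2 and start 2 of 4. That KLF12 start lies upstream of the GENCODE 29 gene model whose coordinates are given for KLF12, and the KLF4 window lies inside the KLF4 gene model.
KLF5 (chr13:73054726-73054975, plus strand): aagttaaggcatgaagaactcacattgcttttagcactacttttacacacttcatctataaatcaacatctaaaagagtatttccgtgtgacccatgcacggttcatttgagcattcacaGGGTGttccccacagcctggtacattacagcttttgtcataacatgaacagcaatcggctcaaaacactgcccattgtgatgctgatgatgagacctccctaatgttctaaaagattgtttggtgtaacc
KLF12 (chr13:74134405-74134654, minus strand): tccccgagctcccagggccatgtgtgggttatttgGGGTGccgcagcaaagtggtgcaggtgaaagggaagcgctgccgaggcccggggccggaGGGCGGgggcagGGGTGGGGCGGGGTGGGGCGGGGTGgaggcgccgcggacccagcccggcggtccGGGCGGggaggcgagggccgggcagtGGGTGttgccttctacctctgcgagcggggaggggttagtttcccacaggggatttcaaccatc
KLF4 (chr9:107489770-107490019, minus strand): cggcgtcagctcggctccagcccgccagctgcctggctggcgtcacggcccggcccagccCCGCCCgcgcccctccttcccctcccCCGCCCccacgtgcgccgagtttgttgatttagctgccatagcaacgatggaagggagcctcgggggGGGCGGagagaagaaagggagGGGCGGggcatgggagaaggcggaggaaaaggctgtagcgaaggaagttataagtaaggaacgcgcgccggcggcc
KLF13 (chr15:31326585-31326834, plus strand): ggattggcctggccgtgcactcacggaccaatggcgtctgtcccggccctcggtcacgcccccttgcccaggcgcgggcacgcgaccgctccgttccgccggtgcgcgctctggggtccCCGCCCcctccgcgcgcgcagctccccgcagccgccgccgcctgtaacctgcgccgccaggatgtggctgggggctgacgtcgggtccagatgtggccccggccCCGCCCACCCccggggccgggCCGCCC

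Promoter windows were counted for 8 of the 10 members, with 16 start windows of 300 bases (250 before and 50 after the start). KLF3 and KLF10 had none. KLF genes with an entry on chromosome 8, where KLF10 lies, were left out, and this step was not applied to the whole table. GGGCGG stood in 9 of these 16 windows (56.2%), against 44.9% of 35097 windows in the whole table, and CACCC likewise in 9 (56.2%), against 59.9%. Start 1 of KLF5 had 1 CACCC box and no GGGCGG in a window of 40.7% GC, whereas the KLF13 window was 78.3% GC with 3 GGGCGG boxes and 1 CACCC box. Start 2 of KLF5, not shown because its window overlaps an exon, was 71.3% GC with 2 boxes of each kind. The KLF4 window had 4 GGGCGG boxes without CACCC, and start 2 of KLF12 had 5 of each, 1 of its GGGCGG boxes lying in the 50 bases after the start that are not shown. The other KLF12 starts had no GGGCGG. Starts 1 and 4 also lacked CACCC (41.0% and 46.0% GC), and start 3 had 5 CACCC boxes. Members that differed in opposite directions therefore both had GC boxes, and the gene-level counts do not tell which start was used.

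Library totals were 12225173 and 12892059 estimated counts in LN-35, and 15333722 and 13598458 in LNCaP. Levels are counts per 1000000 after TMM scaling (CPM), a scaling that sets the bulk of genes equal between libraries, and the floor of 3 counts over a line came to 0.123 CPM in LN-35 and 0.101 CPM in LNCaP. All 72 values of the 18 KLF genes were whole numbers. The luminal identity of the cells was mixed in LN-35: of 8 luminal prostate markers, 2 were called higher and 5 lower, with KRT8, a luminal keratin, at 863 ± 28.7 CPM in LN-35 and 440.3 ± 26.1 CPM in LNCaP, and KLK2, a kallikrein, at 28.1 ± 3.93 against 115 ± 7.08 CPM (SD, n = 2). Neuroendocrine markers were called higher in 6 of 6 tested, while INSM1 was at 0 in every library. Endothelial markers, relevant because KLF2 and KLF4 are abundant in endothelium, summed to 0.5 and 0.805 CPM over 8 genes in LN-35 and to 5.65 and 6.74 CPM in LNCaP, with CDH5, KDR and TEK at 0 in every library. VWF, the 1 endothelial marker tested, made up nearly all of the LNCaP sum. It had 0.333 and 0.724 CPM in LN-35, against 5.52 and 6.67 CPM in LNCaP, and was called lower. Leukocyte markers summed to 13.8 and 18 CPM in LN-35 and 145 and 154 CPM in LNCaP, nearly all of it LCP1 in LNCaP, and fibroblast markers to 47.3 and 45 CPM in LN-35 and 45.4 and 36.8 CPM in LNCaP. COL1A1, a collagen gene that was not called, made up most of the fibroblast sum. The 3 other tested fibroblast markers of 4 were called higher, namely COL3A1 (log2 fold change 2.11), LUM (2.12) and DCN, a proteoglycan gene with 78 and 119 counts in LN-35 and 0 in both LNCaP libraries, while FAP was at 0 in every library. Beside these counts, edgeR called 71.8% of all 13744 tested genes, 36.4% higher and 35.5% lower. The 3 of 4 fibroblast markers called (75%) lay near that share. The part of these marker differences in the KLF differences was not tested.

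All 10 members passed the filter on low counts, KLF12 only through its LN-35 counts. At least 2-fold apart without overlap between the lines were 7 of 10, with 6 higher in LN-35 (KLF3, KLF4, KLF5, KLF6, KLF7 and KLF12) and 1 lower (KLF13). Without LNCaP replicate 1 the count was 6, as the log2 fold change of KLF6 was then 0.92. Over all 13744 tested genes the same rule held for 33.1%, or 18.6% higher and 14.5% lower. The lines did not overlap in 9 of the 10, against 85.5% of all tested genes, and 4 of the 10 differed by a log2 value of at least 3, against 11.8%. Since the members were chosen with this contrast known, nothing is read from these shares.

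**Figure D1:**
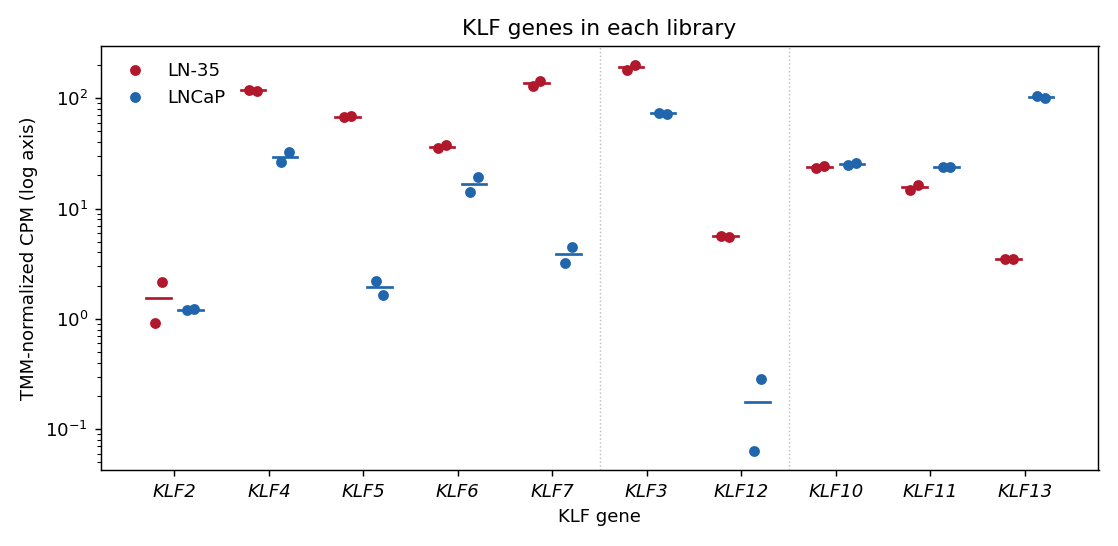
CPM of the 10 KLF genes (y axis, log scale) in the 2 libraries of LN-35 (red, left) and of LNCaP (blue, right). Points are libraries, bars are means, and dotted lines part the acetyltransferase-binding, CtBP-binding and SIN3-binding genes. KLF5, KLF7 and KLF12 stand far higher in LN-35 and KLF13 far lower, while the lines overlap for KLF2.

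Among the acetyltransferase-binding members, KLF5 and KLF7 were among the least abundant members in LNCaP and among the more abundant in LN-35. KLF5 (ENSG00000102554, chromosome 13, 73054976 to 73077542 on GRCh38) had 67.1 and 68.4 CPM in LN-35, against 2.22 and 1.65 CPM in LNCaP. This is 34.6-fold higher, a log2 fold change of 5.11 (SE 0.16). In RNA from whole cultures, more cells that express a gene and more transcript per cell cannot be told apart, here and for every gene below. KLF7 (ENSG00000118263, chromosome 2, 207074137 to 207167267), known in mice for outgrowth of axons, had 130 and 144 CPM in LN-35, against 3.24 and 4.52 CPM in LNCaP. The log2 fold change was 5.15 (SE 0.13), or 35.6-fold higher. In both genes every LN-35 library lay above every LNCaP library by more than the spread within a line.

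KLF4 and KLF6 were expressed in both lines and were higher in LN-35. KLF4 (ENSG00000136826, chromosome 9, 107484852 to 107490482), 1 of the factors used to reprogram cells to pluripotency, had 119.7 and 115 CPM in LN-35, against 26.1 and 32.5 CPM in LNCaP (4.02-fold higher, log2 fold change 2.01, SE 0.10). KLF6 (ENSG00000067082, chromosome 10, 3775996 to 3785281), described as a growth suppressor in prostate, had 35.2 and 37.6 CPM in LN-35, against 14.2 and 19.1 CPM in LNCaP (2.19-fold higher, log2 fold change 1.13, SE 0.14). The LNCaP libraries of KLF4 and KLF6 differed more from each other than the LN-35 libraries did, but neither line reached the other.

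KLF2 (ENSG00000127528, chromosome 19, 16324817 to 16327874), an endothelial and lymphocyte quiescence factor, had low counts in both lines, though above the floor of 3 counts over a line. It had 11 and 27 counts in LN-35 (0.916 and 2.17 CPM), against 19 and 17 counts in LNCaP (1.21 and 1.22 CPM). The lines overlapped, and the log2 fold change of 0.35 (SE 0.52) became -0.40 without LN-35 replicate 2, so no direction is given.

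The CtBP-binding members were both higher in LN-35, from very different levels. KLF3 (ENSG00000109787, chromosome 4, 38664196 to 38701042), a repressor in red cells and fat, had 182 and 199 CPM in LN-35, against 73.4 and 72.6 CPM in LNCaP (2.61-fold higher, log2 fold change 1.38, SE 0.08). KLF12 (ENSG00000118922, chromosome 13, 73686089 to 73995056), first described as a repressor of the AP-2 alpha gene, had 68 and 69 counts in LN-35 (5.66 and 5.55 CPM), against 1 and 4 counts in LNCaP (0.0635 and 0.287 CPM). KLF12 was thus barely detected in LNCaP. The ratio of summed counts was 33.3, with an exact 95% counting interval of 13.9 to 104, which covers counting error only. The log2 fold change was 4.98 (SE 0.55), and it was 4.24 without LNCaP replicate 1 and 6.27 without LNCaP replicate 2. No use of strand is stated for the counting, so reads of KLF3 and of its antisense gene KLF3-AS1, whose exons overlap, cannot be told apart.

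Of the SIN3-binding members, KLF13 was far lower in LN-35 and the others differed by less than 2-fold. KLF13 (ENSG00000169926, chromosome 15, 31326855 to 31435665), known as an activator of the chemokine gene CCL5 in T cells, had 3.5 and 3.46 CPM in LN-35, against 104 and 101 CPM in LNCaP. This is 29.5-fold lower (log2 fold change -4.88, SE 0.13), and 42 and 43 counts remained in the LN-35 libraries. Of KLF10 and KLF11, the TGF-beta-inducible early genes, KLF10 differed little and KLF11 was lower by more than its SE. KLF10 (ENSG00000155090, chromosome 8, 102648779 to 102655902) had 23.2 and 24.1 CPM in LN-35, against 25 and 25.9 CPM in LNCaP (log2 fold change -0.10, SE 0.12), and the libraries did not overlap although the difference was under its SE. KLF11 (ENSG00000172059, chromosome 2, 10042849 to 10054836) had 14.7 and 16.4 CPM in LN-35, against 23.9 and 23.9 CPM in LNCaP, 1.53-fold lower (log2 fold change -0.62, SE 0.14). KLF11 also shares exon positions with an antisense gene.

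**Figure D2:**
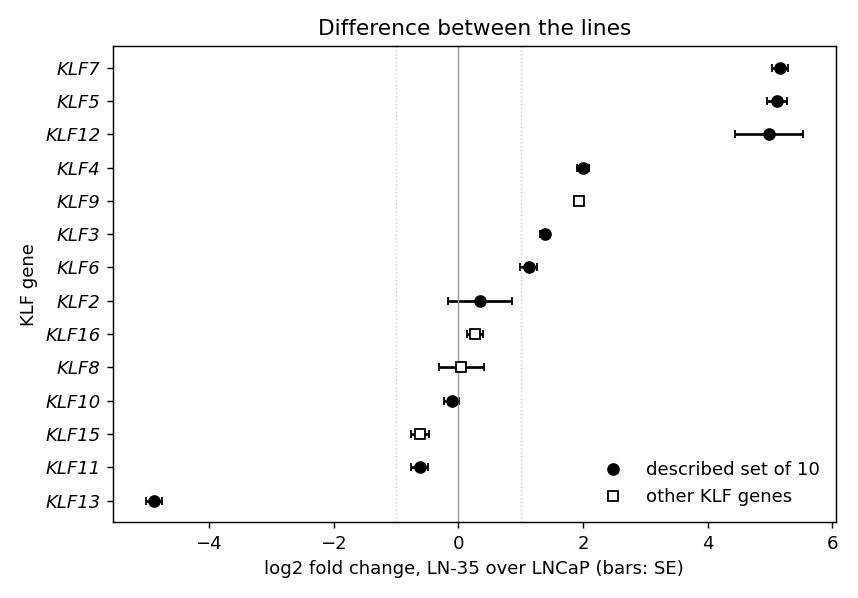
Log2 fold change of LN-35 over LNCaP (x axis) with its SE (bars) for the 14 KLF genes that passed the filter. Filled circles are the 10 genes described, open squares the other 4, and dotted lines mark a 2-fold difference. The values run from -4.88 for KLF13 to 5.15 for KLF7, with KLF5 and KLF12 beside KLF7.

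The 8 remaining KLF genes are what the choice of members left out, so they are described in the same way. KLF9, a hormone-responsive repressor induced by glucocorticoids, had the highest level of the family per kb of exon in both lines (64.6 ± 0.343 CPM per kb in LN-35 and 16.9 ± 0.197 CPM per kb in LNCaP). It had 336 and 333 CPM in LN-35, against 87 and 88.4 CPM in LNCaP (3.81-fold higher, log2 fold change 1.93, SE 0.07). KLF15, a regulator of metabolism in liver and muscle, had 13.7 and 13.3 CPM in LN-35, against 20.6 and 20.7 CPM in LNCaP (log2 fold change -0.62, SE 0.15). KLF16 and KLF8 had log2 fold changes of 0.27 (SE 0.13) and 0.05 (SE 0.36), and the sign for KLF8 turned to -0.03 with library totals alone and to -0.38 without LNCaP replicate 1. The other 4 had too few counts to pass the filter. The erythroid factor gene KLF1 had 1 count in LN-35 and 11 in LNCaP, a ratio of 9.05-fold lower with a 95% counting interval of 1.31 to 389. KLF14 had 0 counts in LN-35 and 2 in LNCaP, KLF17 had 2 in LN-35 and 0 in LNCaP, and KLF18 was at 0 in all 4 libraries.

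To compare levels between genes, CPM was divided by the exon length of each gene in kb. On this scale the members in LN-35 ran KLF4 (32.1 ± 0.892 CPM per kb), KLF3 (30.2 ± 1.92), KLF5 (17.4 ± 0.23), KLF7 (14.8 ± 1.05), KLF6 (5.92 ± 0.28), KLF10 (5.91 ± 0.174), KLF11 (3.4 ± 0.258), KLF2 (0.765 ± 0.44), KLF12 (0.513 ± 0.00721) and KLF13 (0.37 ± 0.00285). The neighbours KLF4 and KLF3, KLF6 and KLF10, and KLF2 and KLF12 overlapped between libraries and are not ranked apart. In LNCaP the order was KLF3 (11.6 ± 0.0841 CPM per kb), KLF13 (10.9 ± 0.25), KLF4 (8.01 ± 1.22), KLF10 (6.36 ± 0.154), KLF11 (5.21 ± 0.00851), KLF6 (2.72 ± 0.567), KLF2 (0.601 ± 0.00449), KLF5 (0.497 ± 0.104), KLF7 (0.419 ± 0.0977) and KLF12 (0.016 ± 0.0145), where KLF5 and KLF7 overlapped (SD, n = 2 throughout). KLF13 was thus rank 10 of the members in LN-35 and rank 2 in LNCaP, or rank 1 in LNCaP with the length of the longest transcript, where KLF3 took rank 2. KLF5 and KLF7 held ranks 3 and 4 in LN-35 and ranks 8 and 9 in LNCaP.

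The 18 KLF genes together summed to 187 and 193 CPM per kb in LN-35, against 77.5 and 79.9 CPM per kb in LNCaP, 2.42 times as much. The acetyltransferase-binding genes summed to 70.2 and 71.8 CPM per kb in LN-35, against 11.3 and 13.6 CPM per kb in LNCaP. They made up 37.4% and 37.2% of the family sum in LN-35, against 14.6% and 17% in LNCaP. The SIN3-binding genes made up 44.1% and 43.6% in LN-35, against 60.7% and 58.8% in LNCaP. Within them KLF9 alone held 34.6% and 33.3% of the family sum in LN-35, against 21.7% and 21.4% in LNCaP, and KLF13 held 0.198% and 0.19% in LN-35, against 14.3% and 13.4% in LNCaP. The CtBP-binding genes, nearly all KLF3, kept a like share, with 15.9% and 16.8% in LN-35 and 15.4% and 15.1% in LNCaP.

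**Figure D3:**
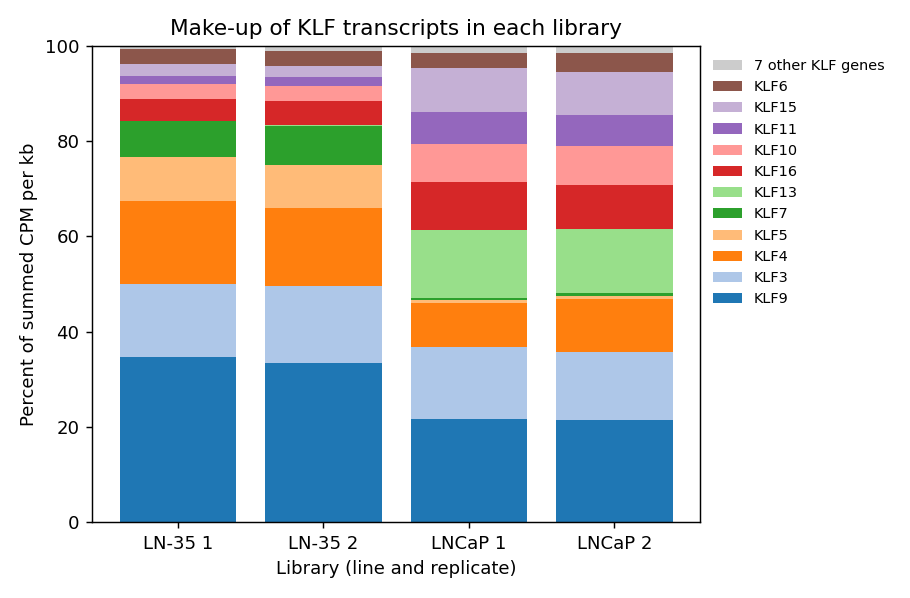
Share of each KLF gene in the summed CPM per kb of the family (y axis, percent), 1 bar per library, with the LN-35 libraries left of the LNCaP libraries. KLF5 and KLF7 take over 7% each in the LN-35 bars and under 1% in the LNCaP bars, and KLF13 takes 14.3% and 13.4% in the LNCaP bars and under 1% in the LN-35 bars.

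By position, KLF5 and KLF12 lie within 1 Mb of each other on chromosome 13. The 4 other tested genes within 1 Mb of this interval were all called higher in LN-35 by edgeR's quasi-likelihood test, with a median log2 fold change of 1.95. They are MZT1, a subunit of the microtubule nucleation complex (1.69, SE 0.13, edgeR adjusted p = 2.44e-11), BORA, an Aurora A cofactor (1.33, SE 0.39, 0.00419), DIS3, an exosome ribonuclease (2.21, SE 0.10, 7.37e-16), and PIBF1, a centrosomal protein (3.01, SE 0.21, 4.59e-12). From 1 to 5 Mb away the pattern was mixed, with 5 of 14 called higher and 5 lower (median 0.14), and from 5 to 20 Mb 11 of 12 were called higher and 1 lower (median 4.0). Over the whole chromosome, 80 of 223 were higher and 92 lower (median -0.12). These windows were set after the values of KLF5 and KLF12 were seen, and KLF5 and KLF12 share their neighbours.

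Around KLF13 on chromosome 15 most neighbours were not lower. Of 9 tested genes within 1 Mb, 5 were called higher and 2 lower (median 1.30). At lower coordinates than KLF13, MTMR10 differed by -0.21 on the log2 scale (SE 0.13, adjusted p = 0.151 in edgeR) and FAN1, a DNA repair nuclease, one of -0.46 (SE 0.08, 2.37e-05), while OTUD7A at higher coordinates had 1.30 (SE 0.54, 0.0347). CHRNA7, a nicotinic receptor gene, was lower (-4.59, SE 0.71, 3.98e-06). CHRNA7 and the GOLGA8 copies of this region have near-identical partners, and their counts are uncertain. The 5 genes called higher include GOLGA8 copies, so the count and median of this window rest in large part on uncertain counts. Over the members together, 102 distinct neighbours were tested and 63.7% were called, against 71.8% of all tested genes.

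**Figure D4:**
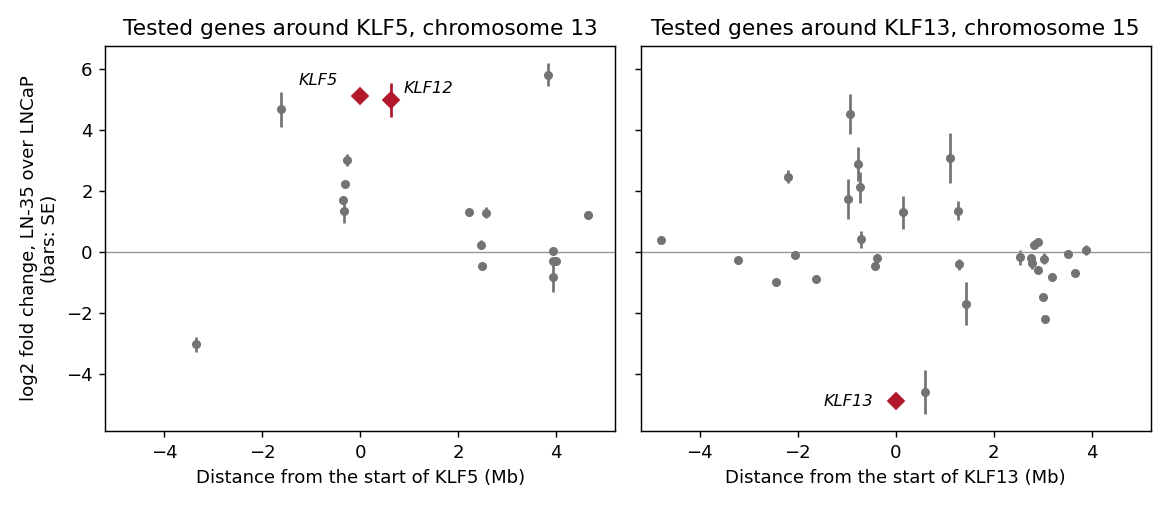
Log2 fold change of LN-35 over LNCaP with its SE (y axis) for tested genes within 5 Mb of KLF5 (left) and KLF13 (right), against the distance in Mb between lower-coordinate gene ends (x axis). Red diamonds are KLF genes and grey points all others. The 4 genes just left of KLF5 lie above 0, at 1.33 to 3.01, and KLF13 lies at -4.88 with CHRNA7 at -4.59 beside it and the other genes within 1 Mb near or above 0.

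The genes that work with KLF proteins were read from lists written from textbook knowledge and tested with edgeR, in which 71.8% of all tested genes were called, 36.4% higher and 35.5% lower, with a median log2 fold change of -0.01. Of the SP family, which shares the KLF binding sites, 5 of 9 genes had enough counts and 3 of those 5 were called. SP1 was higher (176 ± 12.2 CPM in LN-35 and 117 ± 1.84 CPM in LNCaP, log2 fold change 0.59, SE 0.07, edgeR adjusted p = 1.63e-07), as was SP4 (0.51, SE 0.13, 0.00176), and SP3 was lower (-0.48, SE 0.08, 2.44e-05). No tested SP gene differed by 2-fold.

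Of the CtBP and SIN3 corepressor subunits, 8 of 20 were called higher and 8 lower (median log2 fold change -0.05). Both CtBP genes were lower, CTBP1 at 104 ± 3.74 CPM in LN-35 and 162 ± 11.4 CPM in LNCaP (-0.65, SE 0.08, edgeR adjusted p = 5.81e-08) and CTBP2 at 75.4 ± 0.305 and 119 ± 6.36 CPM (-0.65, SE 0.08, 9.23e-08). Among SIN3 complex subunits, SAP30 had 38.8 ± 0.945 CPM in LN-35 and 2.68 ± 0.564 CPM in LNCaP (3.86, SE 0.17, 1.67e-15). ARID4B (1.21, SE 0.07, 5.62e-13) and SUDS3 (0.85, SE 0.07, 3.09e-10) were also higher, and SAP130 was lower (-0.80, SE 0.11, 6.91e-07). The acetyltransferases of the activating class differed less than 2-fold, with 3 of 4 called higher (median 0.34): EP300, encoding p300 (0.38, SE 0.07, 3.64e-05), CREBBP (0.29, SE 0.07, 0.00102) and KAT2B (0.43, SE 0.13, 0.00534).

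Of 10 genes that control KLF protein stability, 4 were called higher and 5 lower (median log2 fold change -0.13), the lower ones falling to 3 with DESeq2 and without LN-35 replicate 1. The ubiquitin ligase gene SMURF1 was higher (84.8 ± 1.72 CPM in LN-35 and 32.5 ± 0.773 CPM in LNCaP, 1.38, SE 0.09, edgeR adjusted p = 2.06e-12), with the F-box genes BTRC (0.97, SE 0.12, 8.04e-08) and FBXO32 (0.61, SE 0.16, 0.00207). SIAH1 (-0.74, SE 0.09, 6.65e-08), VHL (-0.39, SE 0.07, 4.28e-05) and FBXW11 (-0.40, SE 0.08, 6.86e-05) were lower.

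Upstream routes were also read, namely the ERK5 and MEF2 route that induces KLF2 and KLF4 in endothelium and the TGF-beta route that induces KLF10 and KLF11. In the ERK5 and MEF2 list, 3 of 8 were called higher and 2 lower (median log2 fold change -0.08). MEF2C had 21.2 ± 0.873 CPM in LN-35 and 0.382 ± 0.271 CPM in LNCaP (5.80, SE 0.30, edgeR adjusted p = 3.22e-14), MEF2D was higher (0.71, SE 0.08, 5.06e-08), as was MEF2A (0.39, SE 0.08, 0.000179), and MAP3K3 was lower (-0.99, SE 0.15, 2.01e-06). MAP3K2 was also called lower (-0.21, SE 0.08, 0.032), but not with DESeq2 (adjusted p = 0.137), without LN-35 replicate 1 (0.373) or without LNCaP replicate 1 (0.143). In the TGF-beta list, 7 of 9 were called higher and 2 lower (median 0.79). The ligand genes TGFB1, with 17.5 ± 1.35 CPM in LN-35 and 0.556 ± 0.381 CPM in LNCaP (4.92, SE 0.31, 8.04e-13), and TGFB3 (3.07, SE 0.40, 3.15e-07) were higher, with the mediator gene SMAD4 (0.66, SE 0.08, 1.31e-07). The receptor gene TGFBR1 was lower, at 4.34 ± 0.222 CPM in LN-35 and 22.2 ± 6.32 CPM in LNCaP (-2.36, SE 0.21, 2.12e-09). TGFBR2, the other receptor gene of the list, was among those called higher (2.30, SE 0.32, edgeR adjusted p = 9.82e-07). SMAD2 was called lower (-0.22, SE 0.08, 0.0134), but not with DESeq2 (adjusted p = 0.072), without LN-35 replicate 1 (0.085) or without LN-35 replicate 2 (0.0876).

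Genes described as targets of single KLF proteins did not share a direction. Of 21, 13 had enough counts, 4 were called higher and 6 lower (median log2 fold change -0.37). CCND1, the cyclin D1 gene and a target of KLF5 and KLF8, had 2245 ± 12.4 CPM in LN-35 and 138 ± 2.9 CPM in LNCaP (4.02, SE 0.08, edgeR adjusted p = 2.52e-22). TFAP2A, the AP-2 alpha gene that KLF12 is known to repress, had 70 ± 2.64 CPM in LN-35 and 8.55 ± 0.836 CPM in LNCaP (3.03, SE 0.12, 1.19e-16), so the repressor transcript and its described target were both higher. NOS3, a KLF2 target in endothelium, was higher (0.75, SE 0.08, 3.22e-08). CDKN1A, the p21 gene and a target of KLF4 and KLF6, was lower, at 386 ± 7.39 CPM in LN-35 and 594 ± 32.9 CPM in LNCaP (-0.62, SE 0.07, 3.44e-08), and so was CDH1, the E-cadherin gene (-0.73, SE 0.07, 2.35e-09). LAMA3, a laminin chain gene, had 7 counts over the LN-35 libraries and 353 ± 24.6 CPM in LNCaP (-10.22, SE 0.23, 1.56e-13).

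KLF4, KLF6 and KLF10 are also known as immediate early genes that serum or handling can induce within minutes, so other genes of this kind are given beside them. Of 12, 11 were tested, 6 were called higher and 2 lower (median log2 fold change 0.46). EGR1 had 32.8 ± 0.127 CPM in LN-35 and 0.655 ± 0.42 CPM in LNCaP (5.59, SE 0.25, edgeR adjusted p = 1.15e-15), and FOS (3.40, SE 0.24, 7.55e-12) and IER2 (0.80, SE 0.10, 1.27e-07) were higher. ATF3 had 99.4 ± 4.12 CPM in LN-35 and 249.9 ± 5.36 CPM in LNCaP (-1.33, SE 0.07, 5.75e-14), and JUN was lower (-0.37, SE 0.10, 0.00319). The summed level of the 12 genes was 406 and 411 CPM in LN-35 and 474 and 490 CPM in LNCaP. This sum leans on ATF3, the most abundant of the 12 in both lines, and does not give the direction of most of these genes. The part of these genes in the KLF differences was not tested.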

How the data were processed

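RNA-seq was read from 4 libraries, 2 of LN-35 and 2 of LNCaP, with groups taken from the library titles. The authors deposited 1 table of estimated counts per gene, unscaled between libraries; the submitters list featureCounts 1.5.0-p3, HISAT2 2.0.5 and hg38. Some values are fractional, and how they arose, the annotation and any use of strand are not given in the sources used here. Estimated counts were rounded. Symbols were found for 20304 identifiers, and coordinates and exon lengths are from GENCODE 29 (GRCh38, as hg38). filterByExpr (minimum count 10) left 13744 genes across the genome, which were TMM-scaled and compared with edgeR's quasi-likelihood test (two-sided, ~ group, robust), with calls where the adjusted p (Benjamini-Hochberg) lay under 0.05; SEs are from that fit, which was tested on simulated data. The members, lists, tests and alternatives were chosen with earlier results of these data known. Named list genes were up to 3 called per direction with the smallest adjusted p and a mean of at least 1 CPM, and TGFBR2 was added beside TGFBR1. The labels number repeats 1 and 2 under a batch tag. This was read as a possible pairing of the libraries, but a shared culture is not stated. Deviations of same-numbered libraries correlated at -0.04 over 11720 genes. Alternatives were DESeq2's test and size factors, library totals alone, no filter, counts rounded down, the replicate block, leaving out each library, and transcript length. The chromosome windows around KLF5, KLF12 and KLF13 were set after their values were seen. Protein sequences were not used here. DESeq2 1.42.0 and edgeR 4.0.16 (with limma 3.58.1) ran in R 4.3.3. Tables and figures were made in Python 3.11.15 with numpy 2.4.6, pandas 2.3.3 and, for drawing, matplotlib 3.10.9.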

Additional observations from a re-analysis of the deposited data

How the results depend on the processing

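The number of KLF members at least 2-fold apart without overlap, and the total calls of the SP, corepressor, acetyltransferase, stability, ERK5 and MEF2, TGF-beta, target and immediate early lists stayed within 1.5 times of the given counts under every alternative run. The cell type marker lists were not run under the alternatives. Some other values moved. Without the filter on low counts, 3 of the other KLF genes met the 2-fold rule, against 1 with it, since low-count genes then entered the fit. The sign turned for KLF8 with library totals alone (-0.028) and without LNCaP replicate 1, and for KLF2 without LN-35 replicate 2. Leaving out each library gave log2 fold changes of -0.38 to 0.61 for KLF8 and -0.40 to 0.85 for KLF2. With library totals alone 1 acetyltransferase gene was called lower, and with DESeq2 the lower calls came to 3 among the stability genes, 1 in the ERK5 and MEF2 list and 1 in the TGF-beta list, with the same numbers when 1 or more of the single libraries were left out; the cause was not tested. With the replicate block, 9617 of all tested genes were called, against 9873 without it. The block changed no call of a gene named here, TGFBR2 not counted. Over all tested genes, leaving out each library gave 8936 to 9559 calls. Genes under about 10 counts per library, such as KLF1, KLF12 in LNCaP and KLF17, are limited by depth.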

Other observations

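KLF7 had the largest absolute log2 fold change of the members in the fit of all 4 libraries (5.15, SE 0.13), but KLF5 (5.11, SE 0.16) and KLF12 (4.98, SE 0.55) lay within their errors of it, and KLF12 was above it without LNCaP replicate 2 (6.27). Over the 4 libraries, the tested genes closest to it in centred log2(CPM + 0.5) were RUNDC3A, SMARCA1 and PARP14, with root-mean-square distances of 0.0397, 0.0579 and 0.082. RUNDC3A had 43.9 and 48.3 CPM in LN-35, against 0.825 and 1.15 CPM in LNCaP. PARP14, an ADP-ribosyltransferase gene, had 164 and 157 CPM in LN-35, against 3.87 and 5.02 CPM in LNCaP. SMARCA1, an ISWI chromatin remodeling ATPase gene, had 17.8 and 17.8 CPM in LN-35, against 0 and 0.143 CPM in LNCaP. The fitted log2 fold changes were 5.55 for RUNDC3A, 5.18 for PARP14 and 7.86 for SMARCA1, whose near-zero LNCaP level is raised by the added 0.5 CPM, so that its place on this list can depend on that constant, which was not varied.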
